A study of Homo sapiens with 4 samples.

Results

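The translation initiation factors were taken as the protein-coding genes, outside chromosome Y, whose symbols begin with EIF and a digit from 1 to 6, leaving out the EIF2AK kinases. There were 51 such genes among the 60614 gene IDs counted. They were compared by RNA-seq between DU145 cells carrying the F133V form of SPOP, with 2 libraries, and wild-type DU145 cells, also with 2 libraries. DU145 is an established human prostate cancer line, and SPOP is the adaptor that picks substrates for a CUL3 ubiquitin ligase. Both genotypes were grown in the same serum-containing medium with no treatment named. The labels give no way in which the F133V cells were made, no number of clones and nothing on whether replicates were grown apart. The p-values therefore rest on the spread between these 4 libraries, which may be technical. Libraries are called replicates 1 and 2 of each genotype, and their values are given in that order.

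Translation initiation brings a ribosome to the start codon of an mRNA. The small ribosomal subunit carries initiator tRNA, delivered by eIF2 with GTP, together with eIF1, eIF1A, eIF3 and eIF5. The eIF4F complex, made of the cap-binding protein eIF4E, the scaffold eIF4G and the helicase eIF4A, loads this assembly onto capped mRNA, and eIF5B then joins the large subunit. The supply of active eIF2 is set by its exchange factor eIF2B, and eIF4E is held back by the 4E-binding proteins. Many mRNAs of the translation machinery begin with a run of pyrimidines, called a terminal oligopyrimidine (TOP) tract.

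Depth was 36149516 and 35173245 gene-assigned reads for F133V, against 39642063 and 36102260 for wild-type. The CPM given here are read counts relative to library size, scaled by TMM; they do not correct for transcript length and are compared only within a gene. SPOP mRNA stood at 1171 and 1151 CPM in F133V cells, against 844 and 906 CPM in wild-type cells, and read counts do not tell the mutant transcript from the normal one. The epithelial markers KRT8, KRT18, EPCAM and CDH1 lay between 81.1 and 1003 CPM in every library. All 4 rose in F133V cells, by log2 fold changes of 0.30 to 0.45 (edgeR, BH-adjusted). With the adjustment for GC content described below, KRT8 was at 0.12, KRT18 at 0.076, EPCAM at 0.29 and CDH1 at 0.45. KRT8 and KRT18 were not called when GC content came from a single coding transcript (0.06 and 0.025). The leukocyte genes PTPRC and CD3E had at most 0.0272 CPM. The fibroblast genes COL1A1 and PDGFRB had at most 7.54 CPM and the endothelial genes PECAM1 and VWF at most 0.397 CPM. COL1A1 was also called higher in F133V cells (log2 fold change 0.30, edgeR BH-adjusted p = 0.0288), but not with the GC adjustment (0.095). VWF was called higher as well (2.07, edgeR BH-adjusted p = 0.00302), from 2 to 14 reads per library. The part of these marker differences in the initiation factor results was not tested. In bulk RNA, fewer cells holding an mRNA cannot be told apart from less of it per cell.

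Of the 51 genes, 47 passed the filter on low counts. EIF2S3B, EIF3CL, EIF4E1B and EIF4EBP3 did not, with at most 4 reads in any library. Between F133V and wild-type cells, 9 of the 47 rose and 17 fell, and 21 did not pass (edgeR quasi-likelihood test, Benjamini-Hochberg (BH) adjusted p under 0.05 over all genes). The called share was 55.3% of the initiation factors, against 54.8% of all 17539 tested genes. In this fit, without GC adjustment, the factors as a list were thus called about as often as other genes. The share that rose was 19.1%, against 27.2% of all genes, and the share that fell was 36.2%, against 27.6%. The median log2 fold change, F133V over wild-type, was -0.039 over the factors and 0.022 over all genes. Levels did not overlap between genotypes for 36 of the 47 factors, 15 of them with F133V above and 21 with F133V below, which happened for 78.0% of all tested genes (40.1% above and 37.8% below). Only EIF5 and EIF1AX changed by at least 1 on the log2 scale, 2 of 47 factors, against 7.10% of all genes.

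**Figure D1:**
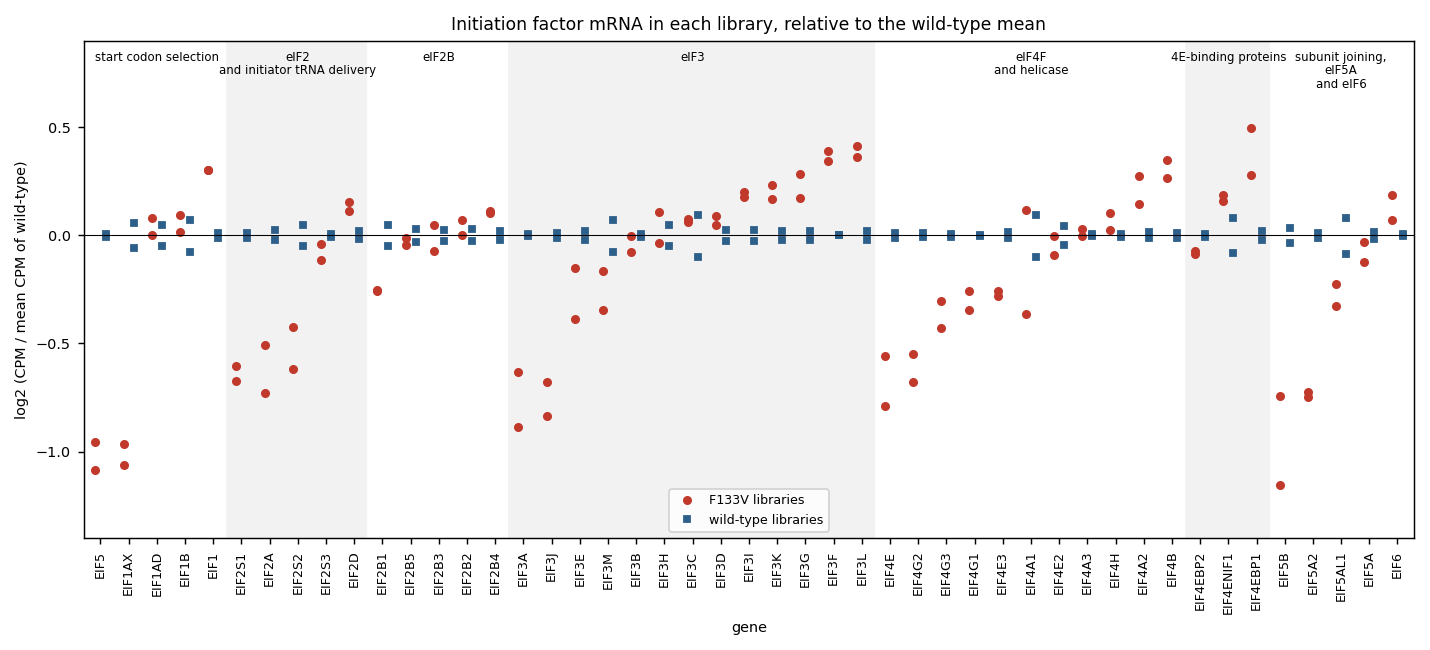
Level of each of the 47 tested initiation factors in the 2 F133V libraries (red circles) and the 2 wild-type libraries (blue squares), as log2 of CPM over the wild-type mean, grouped by role and ordered by fold change within a role. EIF5, EIF1AX and EIF5B lie lowest in F133V cells, and EIF4EBP1, EIF3L and EIF3F lie highest.

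The count of rises was the less stable number. Without wild-type replicate 1 it was 5 and without wild-type replicate 2 it was also 5, with 13 and 15 falls. Upper-quartile scaling, which moved the median of all genes to 0.13, gave 16 rises and 13 falls among the factors, where 36.8% and 21.8% of all genes rose and fell. The difference between genotypes also followed the GC content of transcripts (Spearman rho of 0.73 over 11766 genes, a description since genes are not replicates), and so did the difference between the F133V replicates themselves (rho 0.77, replicate 2 minus replicate 1) but not that between the wild-type replicates (rho -0.072). A second fit therefore carried an offset for GC content and length of the longest transcript, and its values are called GC-adjusted. That fit called 32 factors, 68.1% of those tested, with 15 higher (31.9%) and 17 lower (36.2%). Of all genes 27.6% were higher and 24.5% lower, 52.2% in all. Whether the factors were called more often than other genes was not tested. An offset on GC content also takes away any real difference that follows GC content. Factors that kept their call in both fits numbered 5 higher (EIF1, EIF3F, EIF3L, EIF4A2 and EIF4B) and 12 lower (EIF1AX, EIF2A, EIF2B1, EIF2S1, EIF2S2, EIF3A, EIF3J, EIF4G1, EIF4G2, EIF4G3, EIF5 and EIF5B). With GC and length read from a single well-supported coding transcript per gene, 12 factors were higher (25.5%) and 16 lower (34%). Of all genes 27.9% and 24.3% were higher and lower in that fit.

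The start codon selection group, which takes in EIF1AD by its name alone, held the 2 largest falls of the list. Of its 5 genes 1 rose, 2 fell and 2 did not pass, and 2 were higher and 2 lower after GC adjustment. EIF5 (ENSG00000100664.11, chromosome 14, 103333544 to 103345025, plus strand, GRCh38), which triggers GTP hydrolysis by eIF2 when the start codon is found, had 225 and 206 CPM in F133V cells, against 439 and 434 CPM in wild-type cells. Both F133V libraries lay far under both wild-type libraries, with a fitted ratio of 0.494. The log2 fold change was -1.02 ± 0.059 (SE; edgeR BH-adjusted p = 1.15e-10), and -0.61 after GC adjustment. EIF1AX (ENSG00000173674.11, chromosome X, 20124518 to 20141844, minus strand), which encodes eIF1A, had 42.9 and 40 CPM in F133V cells, against 80.3 and 87.0 CPM in wild-type cells. Its log2 fold change was -1.01 ± 0.072 (edgeR BH-adjusted p = 8.95e-10), and -0.31 GC-adjusted. EIF1 (ENSG00000173812.11, chromosome 17, 41688885 to 41692668, plus strand), which keeps the scanning complex open until the start codon is met, was higher. It had 606 and 607 CPM in F133V cells, against 496 and 488 CPM in wild-type cells, a log2 fold change of 0.30 ± 0.054 (edgeR BH-adjusted p = 7.69e-05; GC-adjusted 0.33). Its close paralog EIF1B had 24.6 and 26.0 CPM in F133V cells, against 23.1 and 25.6 CPM in wild-type cells, with groups that overlapped and a log2 fold change of 0.057 that did not pass. It was called higher after GC adjustment by either transcript (0.28 and 0.31, adjusted p = 0.000217 by the longest). EIF1AD, named for an eIF1A-like domain, did not pass either, at 31.3 and 33.0 CPM against 30.2 and 32.3 CPM in wild-type cells.

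**Figure D2:**
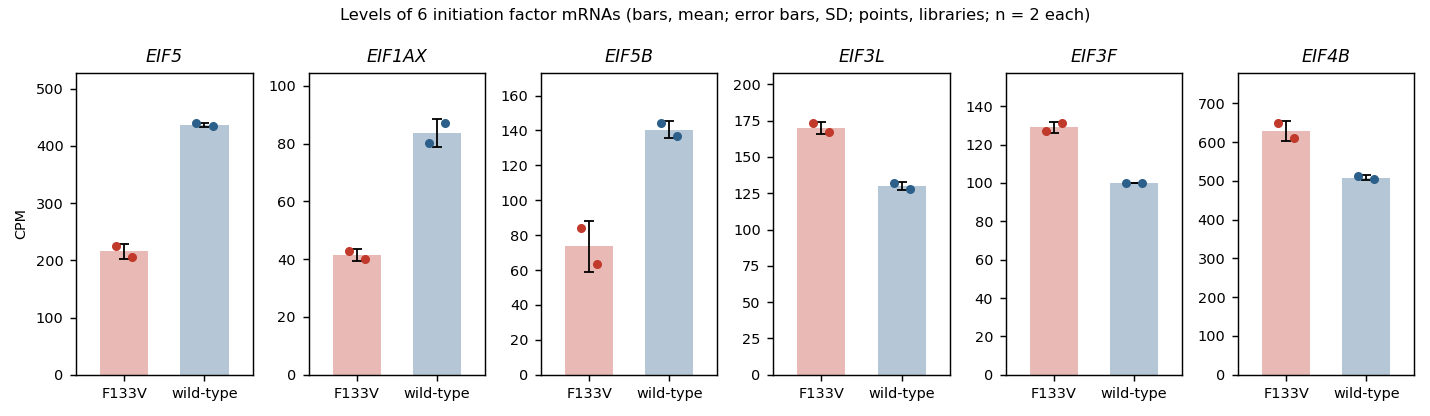
CPM of 6 factors in F133V (left, red) and wild-type cells (right, blue), showing the 3 largest falls and the 3 largest rises among factors whose call held in every fit run. Bars are means, error bars SD and points the 2 libraries of each genotype; EIF5 stood at 216 ± 13.4 CPM (F133V), against 437 ± 4.16 CPM (wild-type).

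Among the genes for eIF2 and initiator tRNA delivery, 0 of 5 tested rose, 3 fell and 2 did not pass. After GC adjustment 2 were higher and 3 lower, and with GC from the single coding transcript 1 was higher and 2 lower. EIF2S1, the alpha subunit that stress kinases phosphorylate, had 146 and 139 CPM in F133V cells, against 224 and 220 CPM in wild-type cells. The beta subunit gene EIF2S2 had 206 and 180 CPM in F133V cells, against 285 and 267 CPM in wild-type cells. Their log2 fold changes were -0.64 ± 0.059 and -0.52 ± 0.066 (edgeR BH-adjusted p = 2.07e-08 and 1.42e-06). GC adjustment left EIF2S2 at -0.41 and brought EIF2S1 to -0.10. EIF2S1 passed in that fit (adjusted p = 0.0144) but not with GC taken from the single coding transcript (-0.067, adjusted p = 0.11) or without either wild-type library (highest adjusted p = 0.224). The gamma subunit gene EIF2S3, whose product binds GTP and the initiator tRNA, did not share the fall. It had 260 and 247 CPM in F133V cells, against 269 and 266 CPM in wild-type cells, a log2 fold change of -0.076 (adjusted p = 0.277) that was 0.20 and passed after GC adjustment. The 3 subunits of this single complex thus had unequal fold changes, with the gamma subunit nearest to 0 before GC adjustment; the differences between subunits were not tested. EIF2A, an initiator tRNA-binding protein distinct from eIF2, had 88.7 and 76.1 CPM in F133V cells, against 128 and 124 CPM in wild-type cells. Its log2 fold change was -0.61 ± 0.071 (edgeR BH-adjusted p = 4.74e-07). The GC-adjusted value was -0.15, and its call was lost without wild-type replicate 1 (adjusted p = 0.0648). EIF2D, which can also deliver tRNA to the ribosome, had 98.3 and 101 CPM in F133V cells, against 92.0 and 89.7 CPM in wild-type cells, and did not pass (log2 fold change 0.14, adjusted p = 0.0732). It was called higher under upper-quartile scaling (0.25, adjusted p = 0.00216) and after GC adjustment (0.35, adjusted p = 1.79e-09), but not with GC from the single coding transcript (0.0096).

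The exchange factor eIF2B, made of the products of EIF2B1 to EIF2B5, changed in 1 of 5 subunit genes. After GC adjustment it changed in 2, as EIF2B2 was also higher (0.14, edgeR BH-adjusted p = 0.0091). With GC from the single coding transcript, EIF2B2 was higher (0.18), and EIF2B1 (-0.14) and EIF2B5 (-0.15, edgeR BH-adjusted p = 0.00453) were lower. EIF2B1, the alpha subunit, had 50.9 and 50.8 CPM in F133V cells, against 58.7 and 62.8 CPM in wild-type cells, a log2 fold change of -0.26 ± 0.069 (edgeR BH-adjusted p = 0.00374; GC-adjusted -0.17). The call was lost under upper-quartile scaling (-0.15) and when either wild-type library was left out. Its GC-adjusted call was lost without wild-type replicate 2. Part of its exons, 15.6% of their bases, is shared with other genes in the annotation, mostly DDX55 on the other strand. The other four subunit genes had log2 fold changes between -0.028 (EIF2B5) and 0.11 (EIF2B4), and none of those passed before GC adjustment. Over all libraries the 5 genes had 20.7 to 62.8 CPM.

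The subunit genes of eIF3, the large complex that holds the small ribosomal subunit and recruits mRNA, moved in both directions. Of 14 genes, 13 were tested, and of these 5 rose, 4 fell and 4 did not pass, with the same counts after GC adjustment for partly other genes. EIF3A (ENSG00000107581.13, chromosome 10, 119033670 to 119080823, minus strand), the largest core subunit, had 317 and 266 CPM in F133V cells, against 490 and 493 CPM in wild-type cells. EIF3J, a loosely attached subunit near the mRNA channel, had 86.8 and 78.0 CPM in F133V cells, against 138 and 140 CPM in wild-type cells. Both had a log2 fold change of -0.75, with SE 0.068 and 0.066 (edgeR BH-adjusted p = 1.53e-08 and 1.1e-08), and stayed lower after GC adjustment (-0.44 and -0.23). EIF3L (ENSG00000100129.18, chromosome 22, 37848868 to 37889407, plus strand), which pairs with the subunit from EIF3K, had 173 and 167 CPM in F133V cells, against 132 and 128 CPM in wild-type cells. EIF3F (ENSG00000175390.15, chromosome 11, 7970251 to 8001862, plus strand), an MPN-domain subunit, had 127 and 131 CPM in F133V cells, against 100 and 100 CPM in wild-type cells. Their log2 fold changes were 0.38 ± 0.060 and 0.36 ± 0.061 (edgeR BH-adjusted p = 1.79e-05 and 4.7e-05). GC adjustment gave 0.32 for EIF3L. For EIF3F it gave 0.87 with the longest annotated transcript (7540 bases, GC content 40.6%) and 0.15 with the shorter coding transcript (1254 bases, 54.8%). The size of its GC-adjusted rise thus rests on which transcript supplies the GC content and length. In the annotation 51.8% of the exon bases of EIF3L are shared with other genes, chiefly AL022311.1 on the same strand.

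Other eIF3 subunits moved less. EIF3G, EIF3K and EIF3I rose with log2 fold changes of 0.23, 0.21 and 0.19 (edgeR BH-adjusted p = 0.00352, 0.00536 and 0.00841). None of these passed after GC adjustment (-0.072, 0.025 and 0.045), and each call was lost when either wild-type library was left out. EIF3E and EIF3M fell with log2 fold changes of -0.26 and -0.25 (edgeR BH-adjusted p = 0.00233 and 0.00513), and both were called higher after GC adjustment (0.28 and 0.35). Their calls were lost without wild-type replicate 1, with adjusted p = 0.0738 and 0.274. EIF3M averaged 106 ± 9.44 CPM in F133V cells, against 127 ± 9.27 CPM in wild-type ones (SD, n = 2). EIF3B, the RNA-recognition core subunit, EIF3D, which can bind the mRNA cap itself, and EIF3H, the other MPN-domain subunit, lay between -0.039 and 0.070 and did not pass before GC adjustment. EIF3B was called lower after GC adjustment by either transcript (-0.24 in both, edgeR BH-adjusted p = 5.51e-08 by the longest). For EIF3D the GC-adjusted call was lower by the longest transcript (-0.089, adjusted p = 0.0224). It was not called by the single coding transcript (-0.06) and was called higher under upper-quartile scaling (0.18, adjusted p = 0.0111). EIF3H had 293 and 265 CPM in F133V cells, against 281 and 263 CPM in wild-type cells, and its GC-adjusted value of 0.51 did pass (adjusted p = 1.69e-15). EIF3C had only 210 to 265 reads per library and its near-identical copy EIF3CL 0 to 3. Multiply aligned reads were counted for no gene, so the eIF3c level was not measured here.

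Of 11 tested genes for eIF4F and its helicase cofactors, 2 rose, 5 fell and 4 did not pass, and after GC adjustment 4 were higher and 4 lower. All 3 scaffold genes were lower: EIF4G1, EIF4G2 and EIF4G3 each fell, and each was also lower under upper-quartile scaling and after GC adjustment. EIF4G1 had 664 and 707 CPM in F133V cells, against 842 and 846 CPM in wild-type cells, a log2 fold change of -0.30 ± 0.055 (edgeR BH-adjusted p = 9.95e-05). Its GC content is high, at 57.4%, in a GC range where genes had a median log2 fold change of 0.19, and the GC-adjusted value was -0.49. EIF4G2, a scaffold relative that lacks the eIF4E-binding site, had 679 and 622 CPM in F133V cells, against 988 and 1001 CPM in wild-type cells. Its log2 fold change of -0.61 ± 0.056 (edgeR BH-adjusted p = 2.02e-08) was -0.11 or -0.31 after GC adjustment, by the longest and the single coding transcript; the value of -0.11 missed the threshold with a wild-type library left out (highest adjusted p = 0.0591). EIF4G3 had 74.5 and 68.3 CPM in F133V cells, against 92.3 and 91.6 CPM in wild-type cells, a log2 fold change of -0.36 ± 0.067 (edgeR BH-adjusted p = 1.08e-04; GC-adjusted -0.24).

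The 2 rises were in the helicase group. EIF4B (ENSG00000063046.18, chromosome 12, 53006158 to 53042209, plus strand), which stimulates the eIF4A helicase, had 648 and 611 CPM in F133V cells, against 513 and 504 CPM in wild-type cells. EIF4A2, a helicase isoform, had 503 and 460 CPM in F133V cells, against 420 and 412 CPM in wild-type cells. The log2 fold changes were 0.31 ± 0.055 and 0.21 ± 0.058 (edgeR BH-adjusted p = 8.45e-05 and 0.00451; GC-adjusted 0.38 and 0.79). The unadjusted call of EIF4A2 was lost when either wild-type library was left out (highest adjusted p = 0.178), while its GC-adjusted call passed with each of the 4 libraries left out. EIF4A3, the exon junction complex relative, had 4840 and 4765 reads in F133V cells, against 5199 and 4755 reads in wild-type cells, and did not pass (log2 fold change 0.0065). Its GC-adjusted value was called in opposite directions by the longest and the single coding transcript (0.10 and -0.10, adjusted p = 0.0172 and 0.0111). EIF4H, which acts like EIF4B, had 527 and 556 CPM in F133V cells, against 516 and 520 CPM in wild-type cells (log2 fold change 0.065, adjusted p = 0.337). It was called lower after GC adjustment (-0.085, edgeR BH-adjusted p = 0.0251), though not with GC from the single coding transcript (-0.044). Upper-quartile scaling called it higher (0.18, edgeR BH-adjusted p = 0.012). EIF4A1, the main helicase gene in most cells, had only 111 to 149 reads per library. Of its exon bases 48.6% are shared with other genes in the annotation, and reads over more than 1 gene were not counted in any, so these counts do not give its level.

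Among the cap-binding genes, EIF4E had 42.8 and 36.5 CPM in F133V cells, against 63.6 and 62.5 CPM in wild-type cells. It fell with a log2 fold change of -0.67 ± 0.077 (edgeR BH-adjusted p = 3.9e-07). After GC adjustment the difference was -0.026 and did not pass (adjusted p = 0.656). EIF4E2, a cap-binding relative linked to translational repression, had 57.6 and 61.2 CPM in F133V cells, against 59.5 and 63.3 CPM in wild-type cells, with groups that overlapped. EIF4E3 had 13.0 and 12.8 CPM in F133V cells, against 15.7 and 15.4 CPM in wild-type cells. Its log2 fold change of -0.27 ± 0.087 (edgeR BH-adjusted p = 0.0119) turned to 0.44 after GC adjustment, and its call was lost without either wild-type library, with upper-quartile scaling and with DESeq2 (adjusted p = 0.0509).

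The repressors of eIF4E had 1 gene higher of 3 tested, EIF4EBP1, and after GC adjustment also 1, EIF4EBP2. EIF4EBP1, the 4E-binding protein best known as a target of mTORC1, had 105 and 122 CPM in F133V cells, against 87.6 and 85.2 CPM in wild-type cells. Its log2 fold change of 0.40 ± 0.071 (edgeR BH-adjusted p = 8.39e-05) was the largest rise in the list, and it kept its call with each library left out. Its GC content of 65.5% was also the highest in the list, and after GC adjustment the difference was 0.024 (adjusted p = 0.619). EIF4EBP2 had 123 and 124 CPM in F133V cells, against 130 and 131 CPM in wild-type cells, and did not pass before GC adjustment (-0.081; GC-adjusted 0.21, adjusted p = 1.46e-05). EIF4EBP3 had 0 and 1 reads in F133V cells, against 3 and 0 reads in wild-type cells, and in the annotation shares 73.4% of its exon bases with ANKHD1-EIF4EBP3. EIF4ENIF1, the carrier of eIF4E into the nucleus, had 22.4 and 22.0 CPM in F133V cells, against 18.6 and 20.8 CPM in wild-type cells, and did not pass (adjusted p = 0.0892).

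Late and dual-role factors had 0 of 5 higher and 2 lower, and 3 lower after GC adjustment. EIF5B (ENSG00000158417.11, chromosome 2, 99337353 to 99401326, plus strand), the GTPase of subunit joining, had 84.0 and 63.2 CPM in F133V cells, against 144 and 137 CPM in wild-type cells. The F133V libraries were far apart here, yet both lay under both wild-type libraries. The log2 fold change was -0.93 ± 0.090 (edgeR BH-adjusted p = 3.71e-08; GC-adjusted -0.34). EIF5A, whose hypusine-bearing product acts mainly in elongation, had 796 and 847 CPM in F133V cells, against 876 and 856 CPM in wild-type cells, and did not pass (-0.076; GC-adjusted -0.35, adjusted p = 5.11e-12). Its paralog EIF5A2 had 3.95 and 3.88 CPM in F133V cells, against 6.57 and 6.47 CPM in wild-type cells. EIF5A2 fell with a log2 fold change of -0.74 ± 0.12 (edgeR BH-adjusted p = 3.14e-05) and did not differ detectably after GC adjustment (0.0029, adjusted p = 0.987). Its GC content of 34.3% was the lowest in the list. EIF5AL1, a retrocopy of EIF5A, had 65 to 84 reads per library and its counts may hold EIF5A reads. EIF6, which keeps free large subunits from joining too early, had 179 and 194 CPM in F133V cells, against 170 and 171 CPM in wild-type cells. It did not pass (log2 fold change 0.13, edgeR BH-adjusted p = 0.0713). It was called lower after GC adjustment by either transcript (-0.16 and -0.14, edgeR BH-adjusted p = 0.000215 by the longest). Upper-quartile scaling called it higher (0.24, edgeR BH-adjusted p = 0.00189).

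GC content ordered the factors much as it ordered other genes. Across the 47 factors, GC content and log2 fold change had a Spearman rho of 0.58, and -0.18 after GC adjustment; the factors share the same 4 libraries. Of the 11 factors with a GC content under 40%, 10 fell and 1, EIF4A2, rose. Their median was -0.64, where that of all tested genes of such GC content was -0.59. Of the 12 factors with at least 50%, 4 rose and 1, EIF4G1, fell, with a median of 0.12, against 0.23 for all tested genes. Between 40% and 45% the 9 factors had a median of -0.076, where all genes had -0.28. After GC adjustment the lowest values were those of EIF5 (-0.61), EIF4G1 (-0.49), EIF3A (-0.44) and EIF2S2 (-0.41), and the highest those of EIF3F (0.87), EIF4A2 (0.79), EIF3H (0.51) and EIF4E3 (0.44). With GC from the single coding transcript, the same 4 genes were lowest, and the highest were EIF4A2 (0.64), EIF3H (0.54), EIF4B (0.41) and EIF3M (0.39), with EIF3F at 0.15 and EIF4E3 at 0.092.

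**Figure D3:**
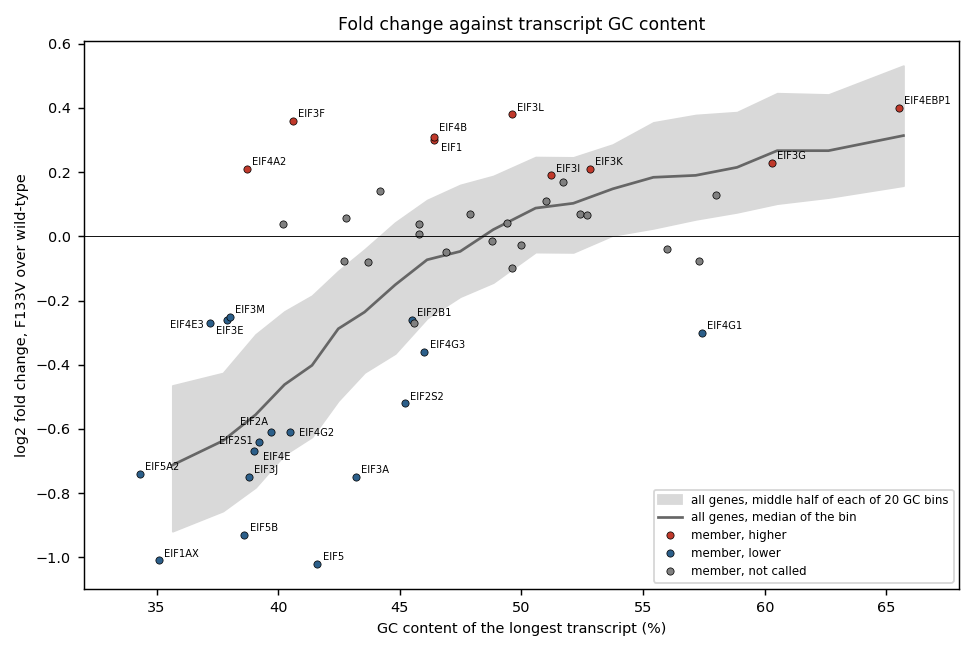
Log2 fold change, F133V over wild-type, of the 47 factors against transcript GC content (longest annotated transcript), coloured by call, over the median (line) and middle 50% (band) of all genes in 20 bins of GC content. EIF5 lies at -1.02 with a GC content of 41.6%, under the band, and EIF4A2 at 0.21 with 38.7%, over it.

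**Figure D4:**
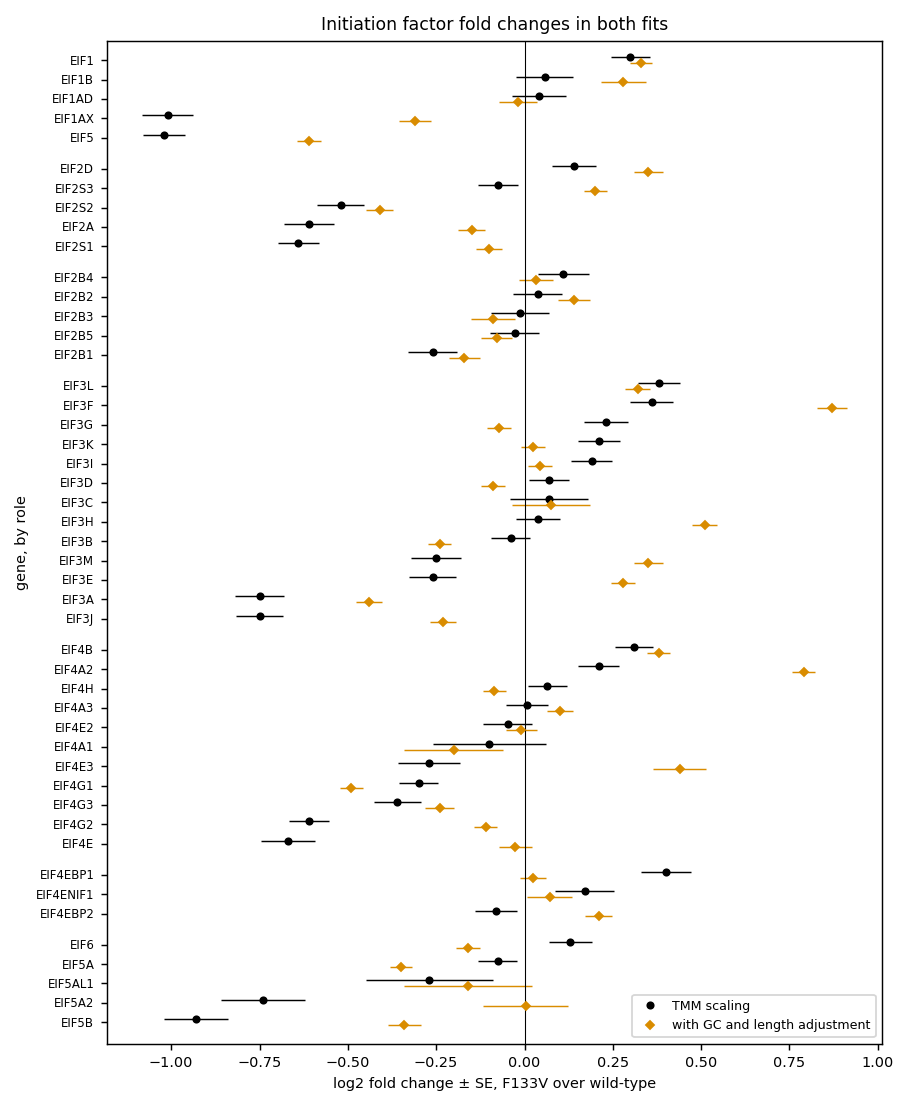
Log2 fold change ± SE of each tested factor, by role, with TMM scaling alone (black circles) and with the GC and length adjustment (orange diamonds). EIF3E, EIF3M and EIF4E3 are called lower in the first fit and higher in the second, and EIF4EBP1, EIF4E and EIF5A2 move to about 0.

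The set of windows used here, around annotated RefSeq transcription starts (GRCh38.p14), held 43 of the 51 factors. EIF2S2, EIF3A, EIF3CL, EIF3E, EIF3G, EIF3H, EIF3L and EIF4EBP1 had no window in that set, so their starts were not searched. The windows were searched on the transcribed strand for a TOP-like tract, set as a C at the start base followed by at least 4 bases that are all C or T. The tract was found for 10 factors: EIF2A, EIF2D, EIF2S3, EIF2S3B, EIF3D, EIF3F, EIF3K, EIF3M, EIF4A2 and EIF4B. Of all 35116 windows 4.07% held it, but a factor was counted when any of its windows did. By gene, 797 tested protein-coding genes with a window had the tract and 10160 did not. The 9 tested factors with the tract are printed because they hold several of the factors that rose. Each is given with 25 bases before the start and 25 from it, 5′ to 3′, the tract in capitals. EIF1, which rose, and EIF1AX and EIF5B, which fell, follow as factors whose start has no such tract.
EIF3F (chr11:7987312-7987361, plus strand): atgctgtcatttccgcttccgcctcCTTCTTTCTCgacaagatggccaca
EIF4B (chr12:53006431-53006480, plus strand): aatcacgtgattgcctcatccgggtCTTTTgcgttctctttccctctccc
EIF4A2 (chr3:186783552-186783601, plus strand): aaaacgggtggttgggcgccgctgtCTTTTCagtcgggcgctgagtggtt
EIF3K (chr19:38619163-38619212, plus strand): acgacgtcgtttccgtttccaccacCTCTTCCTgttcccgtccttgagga
EIF2D (chr1:206612441-206612490, minus strand): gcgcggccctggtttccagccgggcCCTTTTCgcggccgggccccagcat
EIF3D (chr22:36529142-36529191, minus strand): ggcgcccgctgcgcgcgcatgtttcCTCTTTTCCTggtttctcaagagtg
EIF2S3 (chrX:24054931-24054980, plus strand): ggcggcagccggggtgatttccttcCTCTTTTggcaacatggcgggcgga
EIF3M (chr11:32583806-32583855, plus strand): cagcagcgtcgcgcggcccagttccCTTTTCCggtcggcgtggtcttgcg
EIF2A (chr3:150546762-150546811, plus strand): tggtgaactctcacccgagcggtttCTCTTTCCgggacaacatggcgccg
EIF1 (chr17:41688860-41688909, plus strand): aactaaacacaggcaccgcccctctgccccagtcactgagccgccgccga
EIF1AX (chrX:20141814-20141863, minus strand): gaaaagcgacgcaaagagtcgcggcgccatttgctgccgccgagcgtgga
EIF5B (chr2:99337364-99337413, plus strand): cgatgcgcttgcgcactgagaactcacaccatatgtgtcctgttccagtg

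Of the 9 tested factors with the tract, 4 rose (EIF3F, EIF4B, EIF4A2 and EIF3K), 2 fell (EIF3M and EIF2A) and 3 did not pass, with a median log2 fold change of 0.14. After GC adjustment by the longest transcript 6 were higher, 2 lower and 1 not called, with a median of 0.35. With GC from the single coding transcript, EIF4A2 (0.64), EIF4B (0.41), EIF3M (0.39), EIF2S3 (0.24) and EIF3F (0.15) were higher. In that fit EIF2A (-0.11) was lower, and EIF2D (0.0096), EIF3K (-0.012) and EIF3D (-0.06) were not called. The 31 tested factors with a window and no tract had 2 higher, 12 lower and 17 not called, with a median of -0.076; GC-adjusted, 6 were higher and 13 lower, with a median of -0.085. Over all tested protein-coding genes with a window, 40.5% of the 797 with the tract rose and 27.4% fell, against 28.5% and 33.1% of the 10160 without it. After GC adjustment, 42% of the genes with the tract were higher and 21.8% lower, with a median of 0.091, against 29.5% and 29.2% of those without it. Whether the factors with the tract differ from other genes that have it was not tested. Annotated starts need not be those used in DU145 cells, and a missing match says only that these letters do not stand at the annotated start.

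Genes that act on initiation without being members of the list were read from 3 sublists, with 7 of 34 higher, 14 lower and 13 not passing before GC adjustment, and 9 higher and 13 lower after it. Of all tested genes, 27.2% were higher and 27.6% lower before GC adjustment (54.8% in all), and 27.6% and 24.5% after it (52.2% in all). Whether these sublists differ from other genes was not tested. In the eIF2 kinase and phosphatase sublist, which also takes in GCN1, IMPACT and ATF4, 2 of 9 rose and 5 fell. After GC adjustment 2 were higher and 3 lower. IMPACT, an inhibitor of the kinase GCN2, had 51.3 and 43.9 CPM in F133V cells, against 82.2 and 83.8 CPM in wild-type cells (log2 fold change -0.80 ± 0.075, edgeR BH-adjusted p = 2.57e-08; GC-adjusted -0.21). EIF2AK2, the RNA-sensing kinase PKR, had 71.1 and 67.8 CPM in F133V cells, against 99.9 and 102 CPM in wild-type cells. It fell with a log2 fold change of -0.54 ± 0.065 (edgeR BH-adjusted p = 6.08e-07). After GC adjustment the value was 0.11 (edgeR BH-adjusted p = 0.0221). With GC from the single coding transcript it was 0.02 and not called (edgeR BH-adjusted p = 0.698).

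In the mTORC1 and MNK sublist 3 of 14 rose, 2 fell and 9 did not pass, and after GC adjustment 3 were higher and 7 lower. MKNK2, a kinase of eIF4E that docks on eIF4G, had 241 and 262 CPM in F133V cells, against 160 and 161 CPM in wild-type cells, a log2 fold change of 0.65 ± 0.060 (edgeR BH-adjusted p = 2.33e-08; GC-adjusted 0.39). RPS6KB1, the S6 kinase downstream of mTORC1, had 32.8 and 28.7 CPM in F133V cells, against 55.2 and 56.1 CPM in wild-type cells (-0.86 ± 0.077, adjusted p = 1.42e-08; GC-adjusted -0.25). Among poly(A)-binding, helicase and recycling partners, 2 of 11 rose and 7 fell, whereas after GC adjustment 4 were higher and 3 lower. ABCE1, which splits ribosomes after termination, had 145 and 130 CPM in F133V cells, against 282 and 297 CPM in wild-type cells (-1.08 ± 0.064, adjusted p = 1.58e-10; GC-adjusted -0.51). DHX29, a helicase of the scanning complex, had 33.4 and 29.1 CPM in F133V cells, against 67.6 and 66.2 CPM in wild-type cells (-1.10 ± 0.077, adjusted p = 7.58e-10; GC-adjusted -0.62).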

How the data were processed

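The authors deposited raw counts of reads per gene, one table for each of 4 libraries (2 F133V, 2 wild-type; single reads of 75 bases, per the labels' protocols). Per the submitters' processing notes, TopHat2 version 2.0.10, HTSeq version 0.6.0 and build hg38 were used; the sources used here give neither annotation release nor strand setting, so reads of antisense or overlapping genes cannot be told apart. HTSeq's unassigned tallies were set aside before scaling: reads over no gene were 6.12% to 6.53% of a table, over several genes 3.50% to 3.73%, and with several alignments 15.1% and 16.6% in F133V and 14.6% and 13.6% in wild-type replicates 1 and 2. Symbols came from a name table that matched 60444 of 60614 IDs; gene types, positions and transcripts from GENCODE release 29 on GRCh38; start windows from RefSeq.

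Genes were kept by filterByExpr, scaled by TMM and tested with edgeR 4.0.16 in R 4.3.3 (quasi-likelihood F-test, two-sided, genotype only, 2 residual degrees of freedom), calling genes at a BH-adjusted p under 0.05 across every gene tested. Each SE is the log2 fold change over the square root of F. The biological coefficient of variation was 4.64%, and 2.46% with GC adjustment. For the GC adjustment, a smooth of GC content and log2 length (mgcv 1.9.3, with basis dimension 8) was fitted per library to log2 CPM minus the gene's mean (prior count 2), using genes above a mean log2 CPM of 2, and used as an offset. DESeq2 1.42.0, other scalings, no filter, each library left out and a replicate block were alternatives. The edgeR step was run on simulated counts with a common dispersion and no GC trend. That run cannot show how the calls behave under the GC trend of these libraries. Replicates of 1 genotype differed by more than sampling noise (chi-square over degrees of freedom 7.68 for F133V, 1.64 for wild-type).

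The factors, roles, lists and the GC adjustment were chosen with earlier results of these data known. Values in every library were given for up to 4 called factors of lowest p in each role, for paralog families and for up to 2 called genes per wider sublist; others given so were chosen after their values were seen. Some marker genes are not reported here.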

Additional observations from a re-analysis of the deposited data

How the results depend on the processing

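Against 9 higher and 17 lower initiation factors with TMM, DESeq2 size factors gave 9 and 17, the DESeq2 Wald test 9 and 16, and no filter on low counts 9 and 17. Upper-quartile scaling gave 16 higher and 13 lower, and the GC offset 15 and 17, also with the replicate block. With the GC offset from a single coding transcript, chosen after seeing the data, the counts were 12 and 16. Leaving out 1 library gave 5 to 12 higher and 13 to 20 lower. The same with the GC offset, also chosen after seeing the data, gave 13 to 15 higher (15 without F133V replicate 1, 14 without wild-type replicate 1) and 12 to 19 lower. All called genes numbered 9604, and 6337 to 10856 with 1 library left out. The fits without a wild-type replicate give the low ends (6384 and 6337); there wild-type is 1 library, assumed to vary like F133V. The median log2 fold change of -0.039 was 0.072 with upper-quartile scaling, -0.055 with either DESeq2 setting, -0.053 with no filter, -0.019 with the GC offset, -0.020 with block and GC offset, -0.054 with the single-transcript offset and -0.059 to -0.029 with 1 library left out. With the GC offset it was -0.020, -0.053 and -0.023 without F133V replicate 1, wild-type replicate 1 and wild-type replicate 2.

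Same-numbered libraries did not deviate together (correlation -0.027), so the numbers pair nothing. The replicate block gave 9 higher and 17 lower factors, a median of -0.040 and 9365 called genes, and changed no call among the 54 genes followed.

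Signs turned in these settings, and the cause was not tested. With the GC offset the log2 fold changes were -0.019 for EIF1AD (-0.02 with the block), 0.20 for EIF2S3, -0.089 for EIF3D, 0.28 for EIF3E, -0.072 for EIF3G, 0.35 for EIF3M, 0.44 for EIF4E3, 0.21 for EIF4EBP2 (0.20 with the block), -0.085 for EIF4H, 0.0029 for EIF5A2 (0.0034 with the block), -0.16 for EIF6 and 0.11 for EIF2AK2. With the single-transcript offset they were -0.11 for EIF2B4, 0.24 for EIF2S3, -0.09 for EIF3C, -0.06 for EIF3D, 0.29 for EIF3E, -0.07 for EIF3G, -0.012 for EIF3K, 0.39 for EIF3M, -0.10 for EIF4A3, 0.044 for EIF4E2, 0.092 for EIF4E3, 0.23 for EIF4EBP2, -0.044 for EIF4H, 0.051 for EIF5A2, -0.14 for EIF6 and 0.02 for EIF2AK2. With upper-quartile scaling, which raised the median of all genes to 0.13, they were 0.096 for EIF2B3, 0.083 for EIF2B5, 0.035 for EIF2S3, 0.072 for EIF3B, 0.011 for EIF4A1, 0.063 for EIF4E2, 0.03 for EIF4EBP2 and 0.035 for EIF5A. DESeq2 gave -0.0093 for EIF4A3. With 1 library left out, EIF1AD spanned -0.0087 to 0.084, EIF1B -0.017 to 0.13, EIF2B2 -0.00024 to 0.061, EIF2B3 -0.11 to 0.043, EIF3C -0.029 to 0.17, EIF3H -0.067 to 0.11, EIF4A1 -0.36 to 0.094 and EIF4A3 -0.011 to 0.0059, none of them called with all 4 libraries. Counting error is widest for the factors of few reads, such as EIF5AL1 with 65 to 84 reads per library.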
